A study of Mus musculus with 7 samples.

Results

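Macrophages that had seen no ligand before were given muramyl dipeptide (MDP) for 3 h and compared with macrophages of the same kind that were left unstimulated. The comparison rests on 2 of the 7 Affymetrix arrays of a study of mouse macrophages grown from bone marrow, 1 array for each condition, and on all 18193 genes that had a probe set carrying a single gene symbol. Each gene is represented by the one of its probe sets with the highest mean over the 7 arrays. In both conditions the cultures were first kept for 24 h without ligand, which is what naive means here. The MDP culture then received MDP at 10 mg/ml, as the labels write the dose, and the other culture received no ligand for the same 3 h. The other 5 arrays held a naive culture given the lipopeptide Pam3CSK4 at 1 mg/ml as written, and 4 cultures pretreated for 24 h with MDP or Pam3CSK4 and then given either ligand for 3 h. The labels give no strain, age or sex of the mice and do not say whether cells were pooled, and every array is labelled replicate 2. With 1 array per condition there is no spread between cultures, so differences are descriptions of these arrays and carry no p-value.

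MDP is the smallest piece of bacterial peptidoglycan that still activates immune cells. It is sensed in the cytosol, where it is phosphorylated by N-acetylglucosamine kinase and bound by Nod2, which recruits the kinase Ripk2. Ripk2 becomes decorated with ubiquitin chains by the inhibitor of apoptosis proteins, and these chains bring in the kinases that release NF-kB and start the MAP kinases. In macrophages MDP by itself is known as a weak inducer of cytokines that acts strongly together with ligands of Toll-like receptors.

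Levels are the deposited log2 values, so a difference of 1 is 2-fold. The unit is a summary of probe brightness and is compared for the same gene between arrays, never between genes. The median probe set was at 5.55 on the MDP array and 5.50 on the unstimulated array. Where a gene lay under the array median in 1 condition, its signal there was treated as background. The difference then starts at that median and is a bound, marked "at least" or "or lower". The labelled cell type was checked against 14 measured macrophage genes, whose median level was 12.72 with MDP and 12.35 without. Csf1r, the receptor for the growth factor of macrophages, was at 14.33 with MDP and 14.34 unstimulated. Adgre1, a surface receptor that marks mature macrophages, was at 13.24 with MDP and 13.18 unstimulated. The gene-wise median difference of the list was -0.01, and 1 member was past 2-fold, Mertk at -1.18, while Cebpa, a transcription factor of myeloid cells, was at -0.51. No marker gene of other cells of the marrow or blood, or of stroma, differed by 2-fold. This covers 54 markers of lymphocytes, dendritic cells, neutrophils, stromal, mast and erythroid cells. Many of them lay below the array median on both arrays, treated here as background. These were 7 of 11 stromal, 7 of 9 mast and erythroid, 5 of 9 T and NK cell, 5 of 9 dendritic, 3 of 7 B cell and 2 of 9 neutrophil markers. Some neutrophil genes were nevertheless well above the array median on both arrays, among them S100a8 at 10.98 with MDP and 11.03 unstimulated and Ngp at 10.31 with MDP and 10.26 unstimulated. The 9 measured neutrophil markers differed by -0.09 to 0.10. The 18S ribosomal control probe sets stood 0.37 higher in the median on the MDP array than on the unstimulated array. Their part in the differences below was not tested.

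Most genes hardly differed between the MDP and the unstimulated array. Of the 18193 genes, 8441 were above the unstimulated level, 8926 below it and 826 had the same value, with a median difference of 0 and 95.4% of genes within 0.5 of it. Differences were slightly negative in the middle and upper range of levels. In 10 equal groups of genes ranked by level, the median difference ran from -0.12, in group 7 of 10 from the dimmest, to 0.09, in group 4. At the threshold of the study's design, 40 genes were at least 3-fold higher with MDP, 0.22% of all genes, and 1 gene was at least 3-fold lower, 0.0055% of all genes. At 2-fold, 106 genes were higher (0.583%) and 31 lower (0.17%). These counts use the deposited values. Counted from the array median where a value lay below it, 100 of the 106 and 29 of the 31 reached 2-fold, and the 6 higher genes that did not were Cxcl9, Gem, Ptges, Serpinb2, Slc7a11 and Treml4. The percentages are the background for the gene groups described below. The higher side also reached further, with 23 genes past 4-fold and 7 past 8-fold. Just inside the 3-fold threshold lay Cd83 at 1.61 and Calhm6 at 1.62, and just outside it Nfkb2 at 1.57 and Fnbp1l at 1.56.

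**Figure D1:**
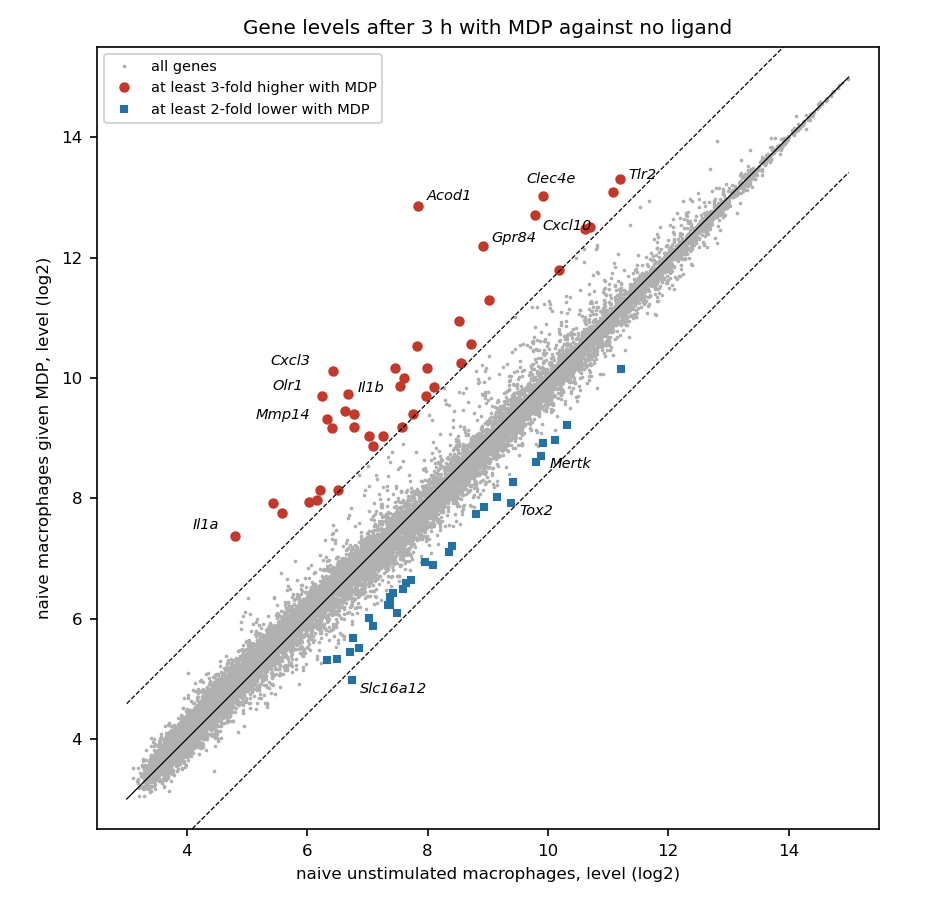
Each point is 1 of the 18193 genes, with its log2 level on the MDP array on the vertical axis and on the unstimulated array on the horizontal axis. Circles mark the 40 genes at least 3-fold higher with MDP, squares the 31 genes at least 2-fold lower, the solid line equal levels and the dashed lines 3-fold differences. The circles reach up to Acod1 at 12.85 with MDP against 7.85 unstimulated, while the squares stay close to the cloud of other genes.

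The median level of the 40 genes past 3-fold was 9.79 with MDP and 7.55 unstimulated. Acod1, the mitochondrial enzyme that makes itaconate from cis-aconitate, stood furthest apart, at 12.85 with MDP against 7.85 unstimulated. Tlr2 and the actin-regulating gene Marcksl1 were already high without ligand, Tlr2 at 13.30 with MDP and 11.20 unstimulated, and Marcksl1 at 13.08 with MDP and 11.09 unstimulated. At the other end, Il1a was at 7.38 with MDP and at 4.79, below the array median, in unstimulated cells.

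The promoters of 6 of these genes are shown because they cover the groups described below: Acod1 as the furthest gene, Cxcl2 and Cxcl10 as chemokines, Nfkbie as an inhibitor of NF-kB, Tlr2 as a receptor and Ifit1 as an interferon-stimulated gene. Each sequence runs 5′ to 3′ on the strand of the gene, from 250 bases before to 50 bases after the RefSeq start of the gene on GRCm38.p6, 300 bases in all. Capitals mark matches, on either strand, to the kappa B consensus bound by NF-kB or to the core of the interferon-stimulated response element (ISRE), searched as GAAA, any 2 bases and GAAA, and overlapping matches run together. A match is a description of the letters and not a measured binding site. The window of Acod1 lies at chr14:103046762-103047061 on the plus strand and holds neither motif. That of Cxcl2 lies at chr5:90903649-90903948 on the plus strand and holds 2 overlapping kappa B matches. That of Nfkbie lies at chr17:45555450-45555749 on the plus strand and holds 1 kappa B match. The window of Tlr2, at chr3:83841559-83841858 on the minus strand, holds 3 kappa B matches. The window of Cxcl10, at chr5:92348840-92349139 on the minus strand, holds 3 kappa B matches and 1 ISRE match. The window of Ifit1, at chr19:34640639-34640938 on the plus strand, holds 2 ISRE matches.
Acod1: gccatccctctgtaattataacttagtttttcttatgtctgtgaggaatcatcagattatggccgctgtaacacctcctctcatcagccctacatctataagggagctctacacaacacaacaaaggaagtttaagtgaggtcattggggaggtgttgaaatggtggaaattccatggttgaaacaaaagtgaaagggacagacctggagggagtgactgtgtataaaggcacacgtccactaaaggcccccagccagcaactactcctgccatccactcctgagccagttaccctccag
Cxcl2: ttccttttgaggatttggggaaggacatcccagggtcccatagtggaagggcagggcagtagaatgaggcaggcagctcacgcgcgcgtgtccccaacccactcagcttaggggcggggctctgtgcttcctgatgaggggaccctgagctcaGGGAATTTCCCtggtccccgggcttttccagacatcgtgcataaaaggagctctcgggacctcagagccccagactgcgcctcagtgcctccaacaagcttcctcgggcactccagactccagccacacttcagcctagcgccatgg
Nfkbie: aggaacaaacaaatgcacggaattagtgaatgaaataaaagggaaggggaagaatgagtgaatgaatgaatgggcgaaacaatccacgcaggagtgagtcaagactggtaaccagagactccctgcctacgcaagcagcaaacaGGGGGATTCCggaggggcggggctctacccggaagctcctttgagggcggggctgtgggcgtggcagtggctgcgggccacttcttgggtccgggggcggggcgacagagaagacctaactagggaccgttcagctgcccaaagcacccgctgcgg
Tlr2: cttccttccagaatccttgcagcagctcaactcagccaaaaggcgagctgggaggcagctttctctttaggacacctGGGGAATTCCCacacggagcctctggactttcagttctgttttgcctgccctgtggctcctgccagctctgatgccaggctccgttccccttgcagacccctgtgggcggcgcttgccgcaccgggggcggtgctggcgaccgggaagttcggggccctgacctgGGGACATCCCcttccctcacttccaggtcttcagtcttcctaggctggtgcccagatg
Cxcl10: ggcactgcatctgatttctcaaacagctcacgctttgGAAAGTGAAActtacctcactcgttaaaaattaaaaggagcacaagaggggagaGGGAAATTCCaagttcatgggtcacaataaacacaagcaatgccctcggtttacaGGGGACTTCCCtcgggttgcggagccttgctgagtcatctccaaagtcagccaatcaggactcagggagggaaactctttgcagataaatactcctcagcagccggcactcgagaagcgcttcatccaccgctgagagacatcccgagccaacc
Ifit1: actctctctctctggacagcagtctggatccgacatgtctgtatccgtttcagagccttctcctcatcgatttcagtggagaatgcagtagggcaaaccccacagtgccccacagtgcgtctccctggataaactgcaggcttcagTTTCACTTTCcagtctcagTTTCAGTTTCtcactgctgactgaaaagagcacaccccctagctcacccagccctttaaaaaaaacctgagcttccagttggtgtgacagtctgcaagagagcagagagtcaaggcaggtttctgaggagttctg

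Among all 18193 genes, 14452 had at least 1 such window in RefSeq, and 11.7% of these had a kappa B match, 3.63% an ISRE match, 7.54% a match to the AP-1 motif TGANTCA and 7.47% a TATA box TATAAA on the gene's strand. Of the 40 genes past 3-fold, 33 had a window, and 11 of these (33.3%) had a kappa B match: Ccrl2, Cxcl10, Cxcl2, Cxcl3, Dcbld2, Gpr132, Hspa1b, Icosl, Nfkbie, Pde4b and Tlr2. An ISRE match was found in 4 of the 33 (12.1%), namely Calhm6, Cxcl10, Ifit1 and Saa3. An AP-1 match was found in 5 (15.2%) and the letters of the TATA box, at any position in the window, in 6 (18.2%). In Icam1, 1 of these 6, they began at position 14 after the gene start. The CArG box, bound by serum response factor, was in 0 of the 33 and in 1.58% of all genes with a window. Of the 31 genes at least 2-fold lower, 23 had a window and 2 of these (8.70%) had a kappa B match. The genes past 3-fold had 1.18 windows each on average and all genes 1.25. These shares describe letters in a short window, and matches of different motifs were counted separately even where they overlapped.

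Genes for the sensing and transport of MDP were for the most part at similar levels in both cultures. Of 28 measured members, 2 were past 2-fold and none of them past 3-fold. In all 13 lay above 0, against 46.4% of all genes, with a median of -0.05. Nod1, the sensor of the related peptidoglycan fragment that carries diaminopimelic acid, was at 8.63 with MDP against 7.60 unstimulated, a difference of 1.03 that was 0.98 with the arrays centred on their medians. Birc3, an inhibitor of apoptosis protein that ubiquitinates Ripk2, was at 11.22 with MDP and 10.04 unstimulated, and its difference of 1.18 was 0.76 over the mean of its probe sets. Irgm1, an immunity related GTPase, came next at 11.46 with MDP against 10.53 unstimulated. The lowest members were the transporters Slc46a1, at 7.25 with MDP and 7.67 unstimulated, and Slc46a3 at 8.62 with MDP and 8.87 unstimulated. The endosomal transporters Slc15a3 and Slc15a4, which were chosen after their values were seen, differed by 0.14 and 0.10. Nod2 and Ripk2 are not analysed here.

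Tlr2, the surface receptor for bacterial lipoproteins, stood apart from the rest of its family. It was the 1 gene past 2-fold among 24 measured Toll-like receptors, coreceptors and adaptors, with a difference of 2.10 that was also past 3-fold. Its partner Tlr1 was at 10.64 with MDP and 9.96 unstimulated. The lipopolysaccharide receptor Tlr4 was lower with MDP, at 10.37 with MDP against 10.96 unstimulated, and the kinase Irak1 at 9.23 with MDP against 9.59 unstimulated. The brake Irak3 was at 8.97 with MDP and 8.50 unstimulated. Of the 24 genes 9 were above 0, against 46.4% of all genes, and the median was -0.03.

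Of 10 measured NF-kB subunits and inhibitors 4 were past 2-fold higher and 2 past 3-fold. All 10 were above 0, against 46.4% of all genes, with a median of 0.63, and 5 differed by less than 0.5. Nfkbie, which encodes the inhibitor IkB epsilon, was at 11.29 with MDP and 9.02 unstimulated, and its second probe set differed by 2.05. Relb, the transcriptional partner of p52, was at 9.84 with MDP and 8.10 unstimulated. Nfkb2, the precursor of p52, was at 9.84 with MDP and 8.27 unstimulated. Nfkbib was past 2-fold at 1.01. Without less specific probe sets it was at 0.29, by a probe set below the array median on both arrays. The classical feedback inhibitor Nfkbia was already high, at 13.79 with MDP and 13.36 unstimulated. The subunit Rel was at 7.39 with MDP and 7.31 unstimulated.

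Brakes that act outside the NF-kB complex differed gene by gene. Socs3, which blocks signalling from gp130 receptors, was at 9.45 with MDP and 6.63 unstimulated, and its 2 other probe sets differed by 2.15 and 2.87. Socs1, the brake on interferon receptors, was at 7.83 with MDP against 6.73 unstimulated, while Socs5 and Socs6 were below 0 at -0.42 and -0.39. Traf1, an adaptor of TNF receptor signalling, was at 7.93 with MDP against 5.43 unstimulated, which is at least 2.43 higher. It was the 1 member past 3-fold among 18 ubiquitin editors, TRAFs and other brakes, and Tnip1, the partner of A20, was past 2-fold at 12.14 with MDP against 10.79 unstimulated. Tnfaip3, which encodes A20 itself, was at 11.44 with MDP and 10.77 unstimulated. No MAP kinase phosphatase of 12 was past 2-fold, with Dusp1 highest at 0.67 and Dusp6 lowest at -0.63. Malt1, the paracaspase of the complex with Bcl10, was at 9.38 with MDP and 8.03 unstimulated, and was at 0.49 over the mean of its probe sets.

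Immediate early transcription factors mostly stayed within 2-fold of the unstimulated level after 3 h. The list of 27 AP-1, EGR and related factors had a median of 0.05. In it, 19 differed by less than 0.5, against 95.4% of all genes, and 19 were above 0, against 46.4%. Of the 27, 1 was past 2-fold. It was the AP-1 repressor Jdp2, at 11.99 with MDP and 10.47 unstimulated, whose difference was 0.95 over the mean of its probe sets. Maff and Junb followed at 0.84 and 0.74. Fos was at 12.74 with MDP and 12.15 unstimulated and Egr1 at 9.06 with MDP and 9.01 unstimulated. Among other regulators of transcription past 2-fold were Mxd1, an antagonist of Myc, at 8.78 with MDP against 7.41 unstimulated, Spic, a factor of red pulp macrophages, at 6.75 with MDP against 5.56 unstimulated, and Foxp4 at 7.72 with MDP against 6.69 unstimulated. Foxp4 was at 0.72 over the mean of its probe sets and at 0.99 with the arrays centred on their medians. The zinc finger gene Hivep3 was past 3-fold at 10.53 with MDP and 7.82 unstimulated, but its other probe sets above the array median differed by -0.54 to 0.85 and the mean of all its probe sets by 0.57.

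Of the inflammatory cytokines, the interleukin-1 pair stood out. Il1b was at 9.73 with MDP and 6.67 unstimulated, and Il1a at least 1.88 higher, and they were the 2 genes past 3-fold among 11 measured members of the family. Il1rn, the natural antagonist of the interleukin-1 receptor, was at 11.74 with MDP and 10.83 unstimulated. Il18 was at 10.19 with MDP and 10.30 unstimulated. Tnf was at 10.23 with MDP and 9.32 unstimulated, short of 2-fold at 0.91. Of 20 other cytokines and growth factors, none was past 2-fold, although 18 were above 0, against 46.4% of all genes. Il15 was highest of the 20 at 9.67 with MDP and 8.96 unstimulated. Its receptor chain Il15ra was past 2-fold at 7.55 with MDP against 6.44 unstimulated. Il10 was at 7.51 with MDP and 7.40 unstimulated. Il6 and Il12b lay below the array median on both arrays. Ifnb1 was at 5.59 with MDP, next to the array median, and at 5.31 unstimulated.

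CXC chemokines had the second highest median of the 53 gene lists, 0.85 over 12 measured members, with 6 past 2-fold and 4 past 3-fold. Cxcl2 and Cxcl3 attract neutrophils. Cxcl3 was at 10.11 with MDP and 6.43 unstimulated, and Cxcl2 at 10.95 with MDP and 8.53 unstimulated. A group of 3 ligands of the T cell receptor Cxcr3 was also higher. Cxcl10 was at 12.70 with MDP and 9.78 unstimulated, and Cxcl11 at 7.93 with MDP and 6.03 unstimulated. Cxcl9 was at 6.34 with MDP and 5.02 unstimulated, which is at least 0.83 higher. The other probe set of Cxcl9 lay below the array median on both arrays and differed by 0.04. Cxcl11 was at 0.94 over the mean of its probe sets, the other of which lay below the array median on both arrays. Cxcl16, which is both a scavenger receptor and a chemokine, was at 12.17 with MDP and 10.81 unstimulated. Cxcl1 was at 7.57 with MDP and 7.20 unstimulated by its brightest probe set, while its probe sets differed by 0.04 to 1.75. Cxcl14 was the lowest member at 7.54 with MDP and 8.42 unstimulated.

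Among CC chemokines 1 gene was past 3-fold, and several others were high on both arrays. Ccl5, which attracts T cells and monocytes, was at 10.17 with MDP and 7.99 unstimulated, the 1 gene of 14 past 2-fold. Ccl4 was at 11.63 with MDP and 10.94 unstimulated and Ccl3 at 11.50 with MDP and 10.94 unstimulated. Ccl2, the monocyte chemoattractant, was at 13.71 with MDP and 13.66 unstimulated. Of 9 chemokine receptors, 1 was past 2-fold, the atypical receptor Ccrl2 at 9.03 with MDP against 7.03 unstimulated. Cx3cr1 was at 8.18 with MDP and 7.25 unstimulated, and Cxcr4 at 10.45 with MDP and 10.81 unstimulated.

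**Figure D2:**
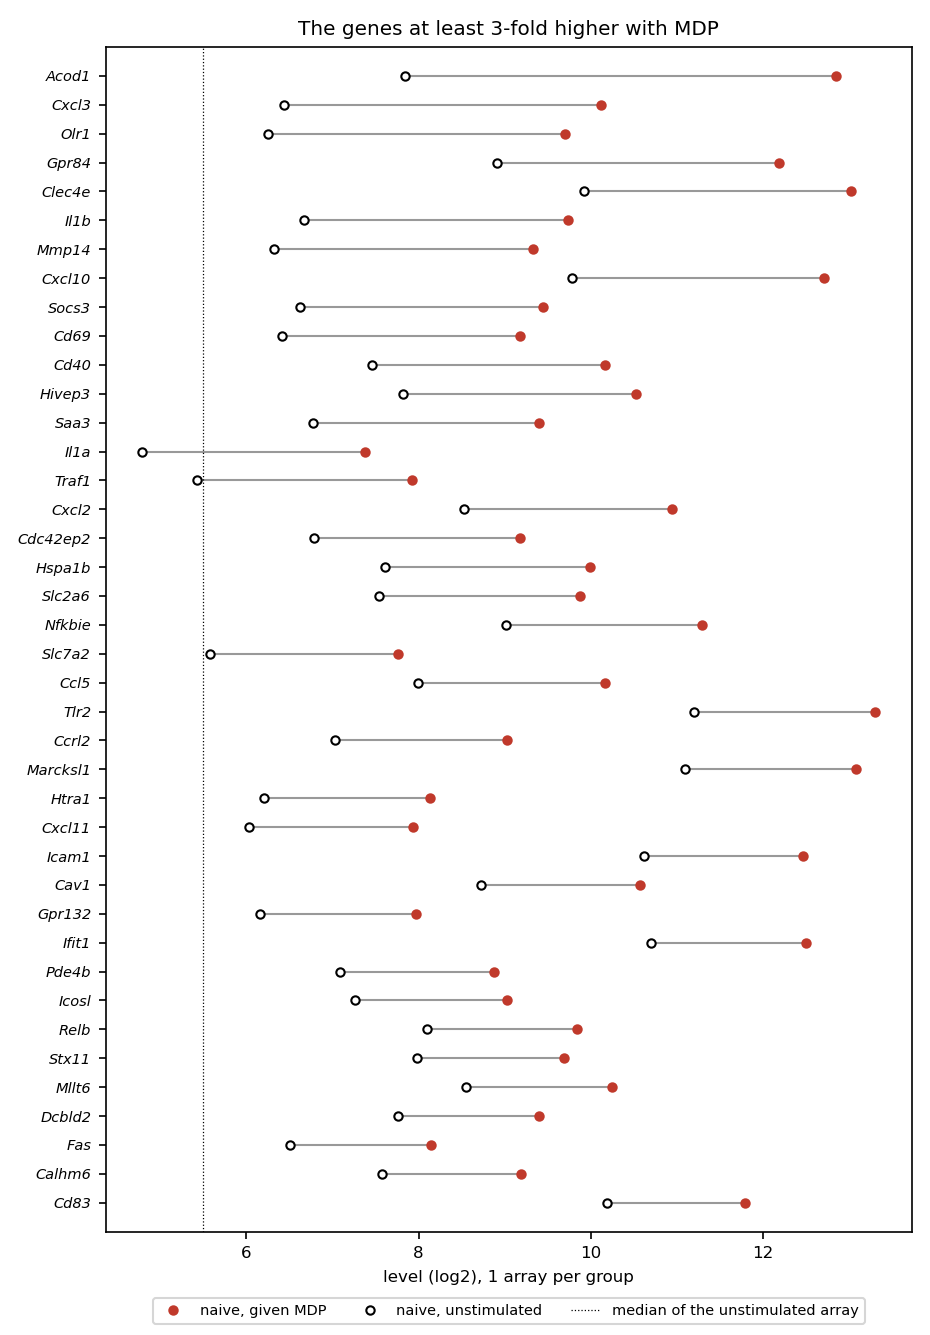
Filled circles give the log2 level on the MDP array and open circles the level on the unstimulated array for the 40 genes at least 3-fold higher with MDP, in the order of the difference. The dotted line is the median of the unstimulated array, and the open circles of Il1a and Traf1 lie below it.

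Surface molecules of activated macrophages were among the genes past 3-fold. Of 15 costimulatory and activation molecules 5 were past 2-fold and 4 past 3-fold. The median of the list was 0.12, and 9 of the 15 differed by less than 0.5, against 95.4% of all genes. Among these 9 were Cd80 at -0.03 and Cd86 at 0.22. Cd69, an early activation marker, was at 9.17 with MDP and 6.42 unstimulated. Cd40, the receptor for the T cell ligand CD154, was at 10.17 with MDP and 7.45 unstimulated, and its other probe sets differed by 3.29 and 3.30. Icosl, the ligand of the T cell receptor ICOS, was at 9.03 with MDP and 7.26 unstimulated. It was at 0.87 over the mean of its probe sets, the other of which lay below the array median on both arrays. Cd83 was at 11.79 with MDP and 10.18 unstimulated. Cd274, which encodes the inhibitory ligand PD-L1, was past 2-fold at 9.74 with MDP against 8.59 unstimulated. The lowest members were Havcr2 at 9.72 with MDP and 10.22 unstimulated and Cd200r1 at 10.36 with MDP and 10.79 unstimulated. In contrast, none of 10 listed class I presentation genes and none of 7 listed class II presentation genes was past 2-fold. Tap1 was highest at 0.45 and H2-Ab1 was at 0.29. H2-Q5, a class I gene on no list, was past 2-fold at 8.13 with MDP against 6.97 unstimulated. Its other probe set, below the array median on both arrays, differed by 0.09.

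Of 11 scavenger receptors 2 were past 2-fold, of 24 G protein coupled receptors and RGS proteins 2 were higher and 2 lower, and of 18 adhesion molecules 2 were higher. Olr1, the receptor for oxidised low density lipoprotein, was at 9.70 with MDP and 6.25 unstimulated. Clec4e, known as Mincle and a receptor for mycobacterial glycolipid, was at 13.03 with MDP and 9.92 unstimulated, and both of its probe sets gave nearly the same difference, 3.10 and 3.08. It was the 1 gene past 2-fold among 12 C-type lectins. Gpr84, a receptor for medium-chain fatty acids, was at 12.18 with MDP and 8.92 unstimulated. Gpr132, a receptor for oxidised fatty acids, was at 7.97 with MDP and 6.16 unstimulated, and at 1.02 over the mean of its probe sets. Icam1, the ligand of the integrin LFA-1, was at 12.47 with MDP and 10.62 unstimulated, and Itgal, the alpha chain of LFA-1, was past 2-fold at 9.99 with MDP against 8.84 unstimulated but at 0.96 over the mean of its probe sets. Fas, the death receptor, was at 8.14 with MDP and 6.51 unstimulated, and Tnfrsf1b, the second TNF receptor, was past 2-fold at 12.54 with MDP against 11.37 unstimulated. Met, the receptor for hepatocyte growth factor, was at 8.38 with MDP and 6.86 unstimulated. Marco, a scavenger receptor for bacteria, was at 7.06 with MDP and 6.21 unstimulated, and the haemoglobin receptor Cd163 was the lowest scavenger receptor at 5.65 with MDP and 6.51 unstimulated. None of 7 Fc receptors was past 2-fold.

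Enzymes and transporters were represented by a few single genes rather than whole pathways. Beside Acod1, the arginine transporter Slc7a2 was the other gene past 3-fold among 13 genes of itaconate, arginine and nitric oxide metabolism, at 7.76 with MDP and 5.58 unstimulated, and its other probe sets above the array median differed by 0.82 and 1.19. Arg2 was at 5.82 with MDP against 4.90 unstimulated, which is at least 0.32 higher. Nos2, the inducible nitric oxide synthase, was at 6.15 with MDP and 5.96 unstimulated. The hexose transporter Slc2a6 was at 9.87 with MDP and 7.54 unstimulated, while none of 18 genes of glycolysis and the hypoxia response was past 2-fold, with Upp1 highest at 0.64. The cystine transporter Slc7a11 was at least 0.58 higher. Sod2, the mitochondrial superoxide dismutase, was at 12.85 with MDP and 11.53 unstimulated, and Ch25h, which makes 25-hydroxycholesterol, at 9.91 with MDP and 8.85 unstimulated. Nr1h3, which encodes the sterol receptor LXR alpha, was at 9.92 with MDP and 8.85 unstimulated. Ptges, the prostaglandin E synthase, was at least 0.61 higher and Ptger4, a receptor for prostaglandin E2, was at 10.48 with MDP against 9.46 unstimulated and 0.98 higher with the arrays centred on their medians, while Ptgs2 lay below the array median on both arrays. The 14 measured genes on the respiratory chain list differed by -0.16 to 0.07. Ndufb1, a respiratory chain subunit on no list, was past 2-fold at 10.16 with MDP against 8.98 unstimulated.

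Secreted effectors and stress proteins past 3-fold were few. Saa3, an acute phase protein made by macrophages, was at 9.40 with MDP and 6.78 unstimulated, the 1 gene past 2-fold among 16 acute phase and antimicrobial effectors. Lcn2 was at 7.50 with MDP and 7.83 unstimulated. Mmp14, a matrix protease anchored in the membrane, was at 9.32 with MDP and 6.32 unstimulated, and its other probe sets differed by 1.11 and 2.07. Htra1, a secreted serine protease, was at 8.14 with MDP and 6.21 unstimulated. The inducible chaperones Hspa1b and Hspa1a, which encode nearly identical proteins and can share probes, were at 10.00 and 8.53 with MDP, against 7.62 and 7.02 in unstimulated cells. Other genes of the unfolded protein and integrated stress response were close to 0, with Asns next at 0.16. Of the inflammasome genes, Casp4 was past 2-fold at 11.27 with MDP and 10.02 unstimulated and Mefv at 8.37 with MDP and 7.35 unstimulated. The difference of Mefv was 0.98 with the arrays centred on their medians. Nlrp3 was at 10.47 with MDP and 9.80 unstimulated, and Casp1 at 11.46 with MDP and 11.21 unstimulated.

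Of 14 small GTPase and cytoskeleton regulators 2 were past 2-fold, both of them also past 3-fold. Cdc42ep2, an effector of the GTPase Cdc42, was at 9.18 with MDP and 6.78 unstimulated. Marcksl1 was past 3-fold by its brightest probe set, while its other probe sets differed by 1.19 to 1.84. Other genes past 3-fold were on no list. Cav1, the main protein of caveolae, was at 10.57 with MDP and 8.73 unstimulated, and Stx11, a SNARE protein of secretory granules, at 9.69 with MDP and 7.98 unstimulated. Pde4b, which degrades cyclic AMP, was at 8.87 with MDP and 7.09 unstimulated, but at 0.66 over the mean of its probe sets. Its other probe sets above the array median differed by 1.82 and 0.56, and the rest lay below it on both arrays. Survival genes past 2-fold were Gadd45b, at 11.18 with MDP and 9.82 unstimulated, and Birc3. Cflar, the inhibitor of caspase-8, was at 11.09 with MDP and 10.21 unstimulated, while Gadd45a was at 9.91 with MDP and 10.65 unstimulated.

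Of 29 measured interferon-stimulated antiviral genes 10 were past 2-fold higher and 1 past 3-fold. In all 27 were above 0, against 46.4% of all genes, with a median of 0.62, and 13 differed by less than 0.5. Ifit1, which binds viral RNA that lacks a host cap, was at 12.50 with MDP and 10.70 unstimulated. Ifit2 was at 12.15 with MDP and 10.59 unstimulated, and Ifit3 at 12.21 with MDP and 10.81 unstimulated. Rsad2, which encodes viperin, was at 13.94 with MDP and 12.82 unstimulated. The dynamin-like genes Mx1 and Mx2 were at 9.76 and 8.38 with MDP, against 8.52 and 7.15 in unstimulated cells. The lowest members were Dhx58 at 9.70 with MDP and 9.87 unstimulated and Bst2 at 11.83 with MDP and 11.89 unstimulated. Of the 29 genes, 19 had a promoter window, and 10 of these (52.6%) held an ISRE match.

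Guanylate binding and immunity related GTPases, which act on vacuoles that hold pathogens, had the highest median of the lists, 0.98 over 9 measured members. Of these 8 were above 0, against 46.4% of all genes, and 2 were past 2-fold. Iigp1 was at 8.05 with MDP and 6.94 unstimulated, Igtp at 11.11 with MDP and 10.07 unstimulated, and Gbp3, just short of 2-fold, at 9.93 with MDP and 8.94 unstimulated. With the arrays centred on their medians Igtp was also just short, at 0.999. Gbp8 was the lowest at 6.41 with MDP and 6.80 unstimulated. Of 22 interferon regulatory factors and STATs, 1 was past 2-fold, Irf1 at 11.18 with MDP and 9.74 unstimulated. Jak2 was at 10.54 with MDP and 9.65 unstimulated. Irf7 was at 10.79 with MDP and 10.73 unstimulated. The signs of the medians of the NF-kB, CXC and CC chemokine, antiviral and GTPase lists were the same under each alternative scaling and probe set rule. The shifts applied by centring were 0.0445 and -0.0452, too small to change these signs.

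**Figure D3:**
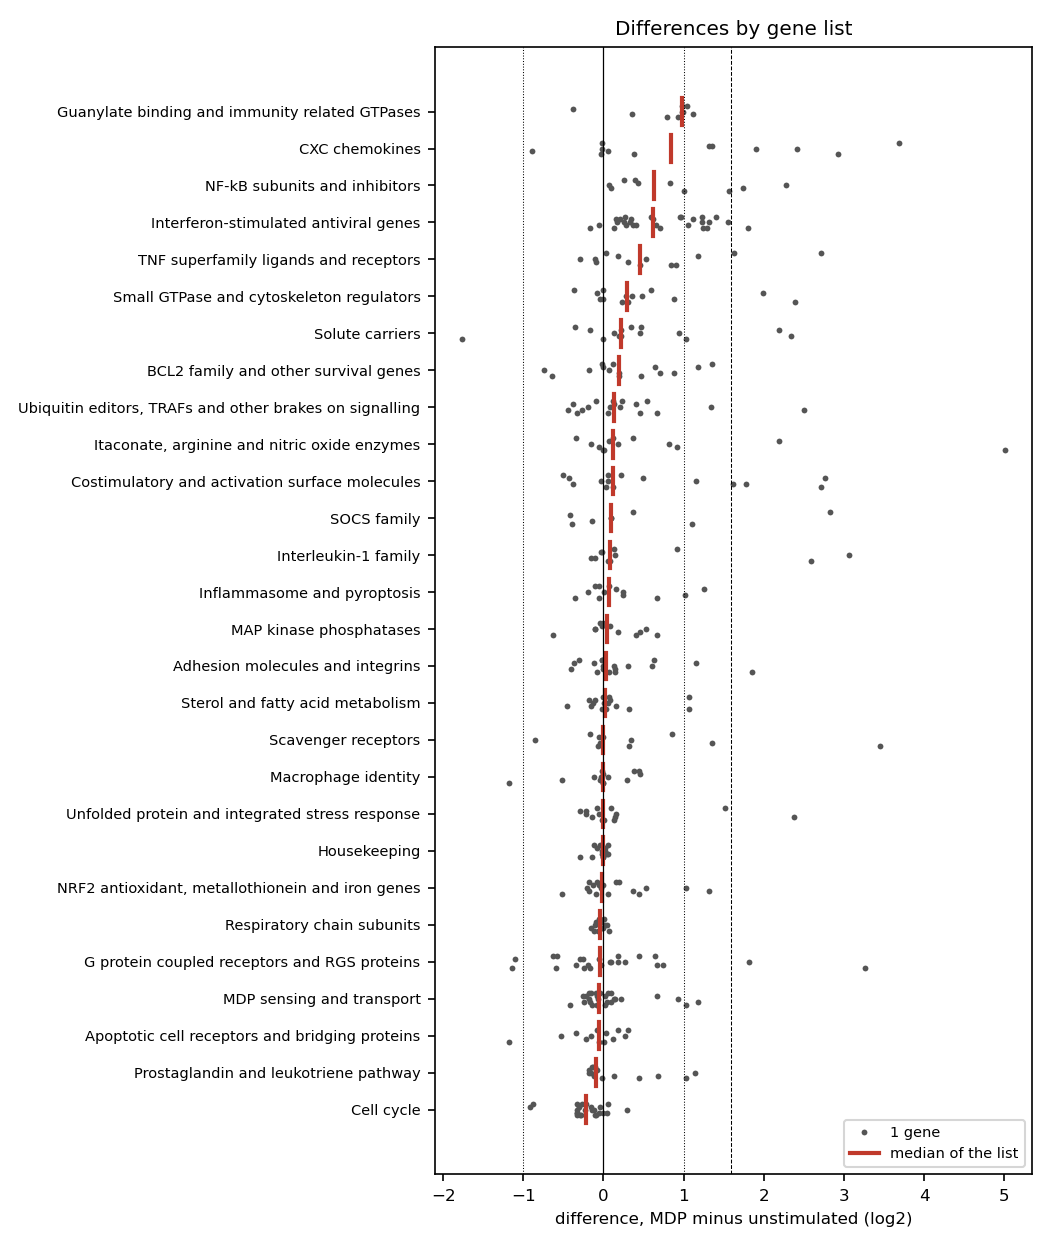
Each point is the log2 difference of 1 measured gene, MDP minus unstimulated, in the lists with at least 2 genes past 2-fold and in 6 others, and each bar is the median of its list. Dotted lines mark 2-fold in either direction and the dashed line 3-fold higher. The medians run from 0.98 for the guanylate binding and immunity related GTPases to -0.22 for the cell cycle.

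Genes lower with MDP were fewer and their differences smaller. The 31 genes at least 2-fold lower had a median level of 6.65 with MDP and 7.73 unstimulated, and 5 of them were on a list. Slc16a12, a transporter of creatine, was past 3-fold by its deposited values of 4.98 with MDP and 6.74 unstimulated, a difference of -1.19 or lower when counted from the median. Mertk, the receptor kinase with which macrophages bind and engulf apoptotic cells, was at 8.71 with MDP and 9.89 unstimulated, the 1 gene past 2-fold among 13 receptors and bridging proteins for apoptotic cells. Thbs1, which bridges apoptotic cells to macrophages, was at 10.52 with MDP and 11.05 unstimulated, whereas Axl, a kinase of the same family as Mertk, was at 9.03 with MDP and 8.76 unstimulated. Cnr2, the cannabinoid receptor of immune cells, was at 8.01 with MDP and 9.15 unstimulated, and Gpr34, a receptor for lysophosphatidylserine, at 6.50 with MDP and 7.60 unstimulated. Mex3b, an RNA-binding protein, was at 6.89 with MDP and 8.10 unstimulated.

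Other genes of the 31 had varied roles. Cd244a, which encodes the receptor 2B4, was at 6.10 with MDP and 7.49 unstimulated. Kitl, the ligand of the receptor Kit, was at 8.26 with MDP and 9.42 unstimulated, and at -0.57 over the mean of its probe sets. Pde3b, a phosphodiesterase of cyclic nucleotides like Pde4b, was at 8.60 with MDP and 9.80 unstimulated. Fgd4, an exchange factor of Cdc42, was at 7.85 with MDP and 8.94 unstimulated, Arhgap19 at 8.96 with MDP and 10.12 unstimulated, and Tbc1d2 at 7.20 with MDP and 8.40 unstimulated. Hells, a DNA helicase of dividing cells, was at 5.67 with MDP and 6.77 unstimulated. Over the mean of their probe sets the differences were -0.93 for Cd244a, -0.50 for Fgd4, -0.96 for Arhgap19 and -0.45 for Hells, all short of 2-fold. Tox2 was at 7.92 with MDP and 9.38 unstimulated by its brightest probe set. Without less specific probe sets its difference was 0.04, by a probe set below the array median on both arrays, treated here as background. Ncapd3, a condensin subunit, was at -1.01 and at 0.11 without less specific probe sets. The long noncoding RNA Malat1 had 7 probe sets, with differences of -1.19 to -0.02, and the brightest was at 9.22 with MDP and 10.33 unstimulated.

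**Figure D4:**
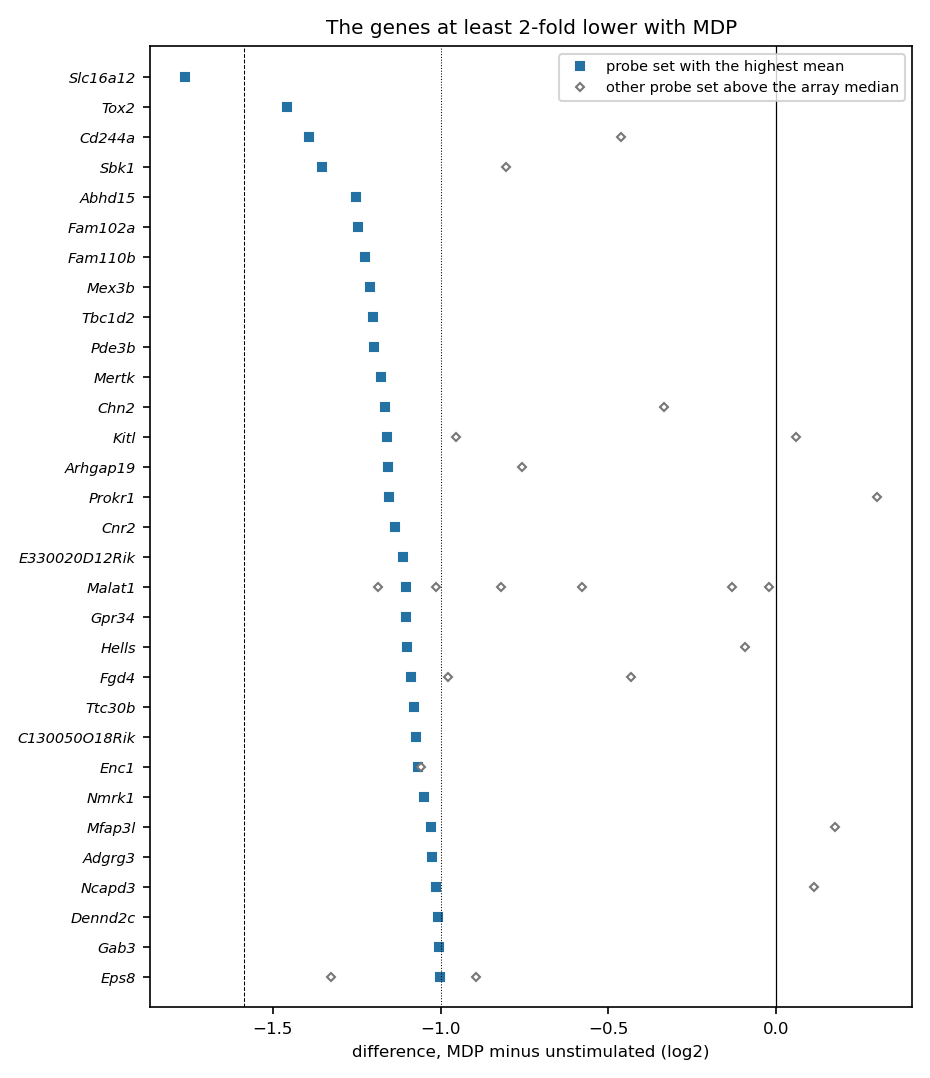
Squares give the log2 difference, MDP minus unstimulated, of the probe set with the highest mean for each of the 31 genes at least 2-fold lower with MDP, and diamonds the other probe sets of the gene above the array median. The dotted line marks 2-fold and the dashed line 3-fold lower. Many diamonds lie nearer to 0 than their square, as the 7 probe sets of Malat1 between -1.19 and -0.02 show, and those of Kitl, Prokr1, Mfap3l and Ncapd3 reach above 0.

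No cell cycle gene of 24 measured was past 2-fold. In all 3 were above 0, against 46.4% of all genes. The median was -0.22, or -0.14 after cyclic loess normalisation of the 7 arrays. The median difference of all genes in the groups of similar level was -0.12 to -0.07. Ccne2, a cyclin of the start of S phase, was at 6.25 with MDP and 7.17 unstimulated, and the replication licensing factor Cdc6 at 6.23 with MDP and 7.12 unstimulated. Ccnd2 was the highest member at 10.56 with MDP and 10.26 unstimulated. Pparg, the nuclear receptor of alternative activation, was at 8.23 with MDP and 9.08 unstimulated. The thrombin receptor Thbd was at 8.72 with MDP and 9.52 unstimulated and the plasminogen activator Plau at 6.95 with MDP and 7.64 unstimulated. Housekeeping genes had a median of -0.01 over 16 members.

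The same naive macrophages given Pam3CSK4 for 3 h mostly reached higher levels of these genes, as far as the single dose of each ligand allows a comparison. Both differences use the same unstimulated array. For the 40 genes past 3-fold the median difference from unstimulated was 2.23 with MDP and 3.51 with Pam3CSK4, and 24 of them were at least 2-fold lower with MDP than with Pam3CSK4. Il1b was at 9.73 with MDP and 14.17 with Pam3CSK4, and Socs3 at 9.45 with MDP and 13.43 with Pam3CSK4. Acod1 was closer, at 12.85 with MDP and 13.78 with Pam3CSK4. Of all 18193 genes 10345 were above their Pam3CSK4 level, and of the 106 these were 14, namely Ifit1bl1, Ifit3, Cmpk2, Cxcl9, Treml4, Rsad2, Mx2, Ifit2, Ifit1, Iigp1, Oasl1, Gm4951, Cxcl11 and Cxcl10. Ifit3 was at 12.21 with MDP and 11.03 with Pam3CSK4, Ifit1bl1 at 10.37 with MDP and 9.13 with Pam3CSK4, and Rsad2 at 13.94 with MDP and 13.59 with Pam3CSK4. Over the 29 antiviral genes the median difference from unstimulated was 0.62 with MDP and 0.78 with Pam3CSK4. Of all 18193 genes, 129 were at least 2-fold higher with MDP than with Pam3CSK4 and 255 at least 2-fold lower.

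Levels on the other arrays are given for Acod1, Socs3 and Ifit3 as single examples and not as a summary of the genes higher with MDP. Acod1 was at 12.85 in naive cells given MDP, 11.24 in cells given MDP after MDP, and between 13.78 and 14.02 in the 4 cultures given Pam3CSK4 at either step, against 7.85 in unstimulated cells. Socs3 was at 9.45 in naive cells given MDP and 7.21 in cells given MDP after MDP, against 6.63 unstimulated. Ifit3 was at 12.21 in naive cells given MDP and 12.35 in cells given MDP after MDP, against 10.81 in unstimulated cells. None of the 106 genes past 2-fold had its highest level of the 7 arrays on the naive MDP array. The share of all genes with their highest level there was not counted.

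**Figure D5:**
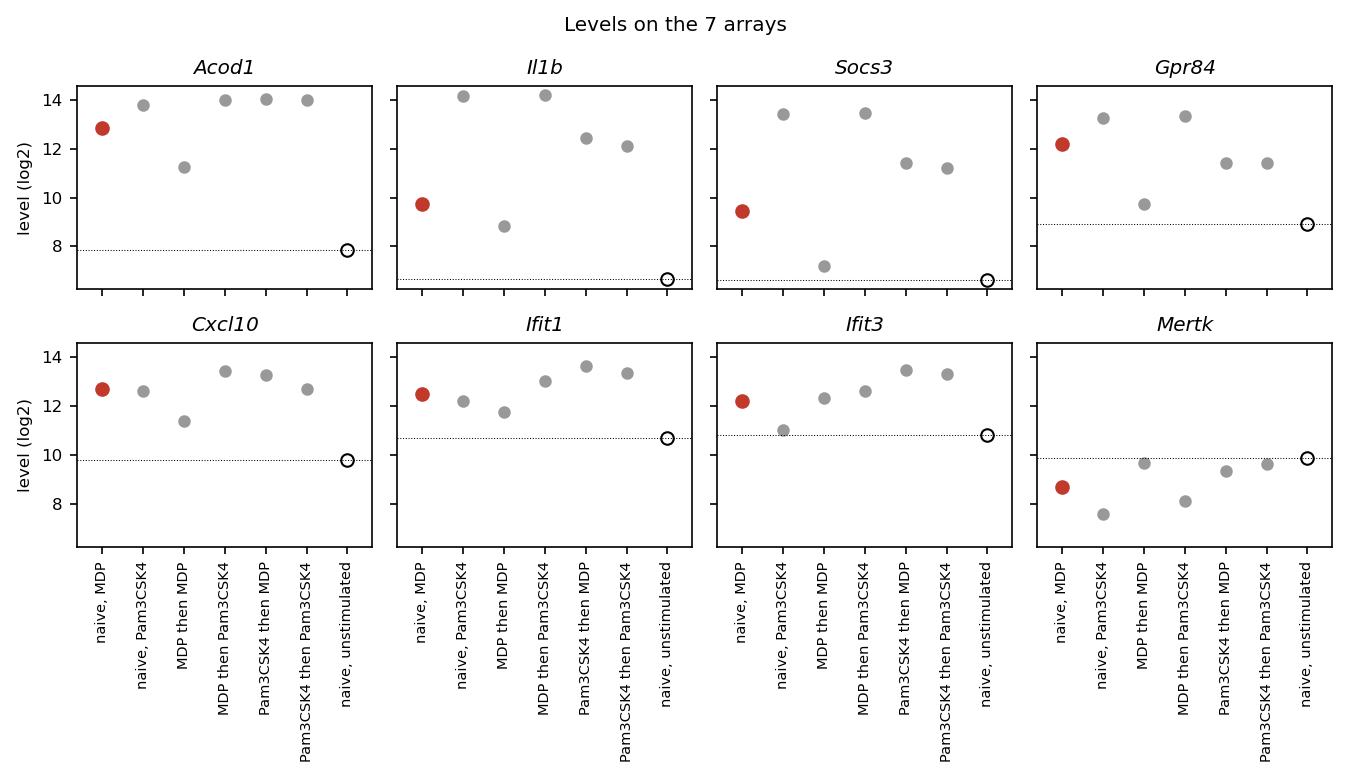
The log2 level of 8 genes on each of the 7 arrays, 1 point per array, with naive cells given MDP at the left and naive unstimulated cells at the right of each panel. The dotted line is the unstimulated level, which Mertk stays below and the other genes stay above on each other array.

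Several calls depend on which probe set stands for a gene. Of the 40 genes past 3-fold, 25 had a single probe set above the array median. The other 15 had several, and these pointed the same way in 13 genes and were all past 3-fold in 5. With the mean of all probe sets of a gene 28 of the 40 stayed past 3-fold. The other 12 were Traf1 at 1.50, Marcksl1 at 1.58, Htra1 at 1.56, Stx11 at 1.40, Slc7a2 at 1.11, Gpr132 at 1.02, Cxcl11, Icosl, Dcbld2 at 0.81, Mllt6 at 0.76, Pde4b and Hivep3. Of the 106 genes past 2-fold, 84 stayed past it with that mean, 95 with the arrays centred on their medians and 85 when 32 was added to each linear value. Of the 31 lower genes, 13 had several probe sets above the median, which pointed the same way in 9. The mean over probe sets includes those below the array median on both arrays, as for Cxcl11, Gpr132, Icosl, Jdp2 and Pde4b.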

How the data were processed

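Log2 expression values per probe set were deposited by the authors. Per the submitters' processing notes, affy and its RMA method produced them, and per the labels' protocols each array took 5 ug of total RNA. The versions, the probe set definitions and the arrays normalized together are not given in the sources used here. The values run from 2.95 to 15.1 over 45101 probe sets, with no value missing, and were used without further transformation. Of the probe sets, 64 controls were left out, 34945 had 1 gene symbol in the platform table, 932 several and 9160 none.

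A gene's difference is the MDP value minus the unstimulated value of its probe set with the highest mean over 7 arrays. Precision is limited by the number of arrays, and 1 array per group allowed no test. All genes past 3-fold are named. The rest are a selection from the genes past 2-fold with the higher array above its median, the 3 highest and 2 lowest members of each list, and a fixed set of macrophage activation genes. Not every gene in these groups is described, and Eps8 and Enc1, both at least 2-fold lower, are among those left out. Any other gene is a cell type marker or was chosen after its values were seen. The 53 lists hold 800 genes, of which 717 were measured. The members, lists and the rule on background were chosen with earlier results of these data known.

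Promoter windows came from RefSeq (GRCm38.p6), and motifs were searched on both strands except the TATA box. The calculation was tested on simulated data. Alternatives were centring on medians or on 16 housekeeping genes, cyclic loess (limma 3.58.1 in R 4.3.3, span 0.7, 3 iterations), averaging the probe sets of a gene, dropping less specific ones, 2 level filters, adding 32 to linear values, and a 4-fold threshold. Computation used pandas 2.3.3, numpy 2.4.6 and scipy 1.17.1 in Python 3.11.15, and figures matplotlib 3.10.9.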

Additional observations from a re-analysis of the deposited data

How the results depend on the processing

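With 1 array per condition, no value can be set against the variation between cultures, and no array could be left out. No paired analysis was possible because each group has 1 array and all carry the same replicate number. The count of 40 genes at least 3-fold higher ranged from 28, with probe sets averaged per gene, to 46, after cyclic loess, and was 23 at a 4-fold threshold. Of the 40, 24 were past 3-fold under all 8 alternatives, where a gene left out by an alternative counted as not past it. Above 2-fold under each alternative that kept the gene were 34. The lower side was less stable. The count of genes at least 3-fold lower was 0, against 1, both when the higher array had to exceed its 75th percentile and with 32 added to the linear values. The count of genes at least 2-fold lower was 18 with probe sets averaged per gene, 13 above the 75th percentile and 13 with 32 added, against 31. Without less specific probe sets the differences turned positive for Tox2 (0.042), by a probe set below the array median on both arrays, and Ncapd3 (0.11). The last 2 changes follow from another probe set standing for the gene. By its definition the level filter only leaves genes out, and adding 32 brings each difference nearer to 0. Averaging brings in the other probe sets of a gene. The cause of the change after cyclic loess was not tested.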

Other observations

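Of the 31 genes at least 2-fold lower with MDP, 3 had their lowest level of the 7 arrays on the naive MDP array, namely Malat1, Cd244a and Mfap3l. The share of all genes with their lowest level there was not counted, so this count is not read as a trait of the 31. Malat1 was at 9.22 in naive cells given MDP and between 10.06 and 10.87 on the other 6 arrays, with 10.33 in unstimulated cells. Cd244a was at 6.10 in naive cells given MDP and between 6.82 and 8.30 on the other 6 arrays, with 7.49 in unstimulated cells. Mfap3l was at 6.002 in naive cells given MDP and between 6.74 and 7.67 elsewhere, with 7.03 in unstimulated cells. Over the mean of their probe sets the differences from unstimulated cells were -0.69 for Malat1, -0.93 for Cd244a and -0.31 for Mfap3l. No reason for these levels was tested.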
